A study of Carassius auratus with 6 samples.

Results

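The MNK kinases, the cap-binding protein eIF4E and the proteins that bind eIF4E were followed in liver RNA of crucian carp. Members were the rows of the deposited gene table whose gene name was mknk1, mknk2, eif4e, eif4e2, eif4ebp1, eif4ebp2, eif4ebp3 or eif4enif1, with or without a copy suffix. The rule found 20 rows of 47544. These were 2 rows named mknk1, 5 mknk2, 2 eif4e, 3 eif4e2, 6 eif4ebp2 and 2 eif4enif1, and 0 rows named eif4ebp1 or eif4ebp3. The gene family was chosen by the differences between hypoxia and control counts in these same 6 libraries, so every value of a member in that comparison is given as a description, and whether a row passed the threshold is no support for the choice. The study compared 3 libraries from liver taken after 12 h of hypoxia stress with 3 libraries from control liver, all of wild-type Carassius auratus. The sources used here do not give the oxygen level, the age and sex of the fish or the number of fish behind a library. The labels do not say that replicates are separate fish, so errors describe the spread between these libraries, which may be technical.

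These proteins act at the first step of translation, the capture of the mRNA cap. eIF4E binds the cap and recruits the scaffold eIF4G with the helicase eIF4A. MNK1 and MNK2, kinases that are themselves switched on by the MAP kinases ERK and p38, dock on eIF4G and phosphorylate eIF4E. The eIF4E-binding proteins (4E-BPs) compete with eIF4G for eIF4E, and phosphorylation by the growth-regulated kinase complex mTORC1 releases them. eIF4E2, also called 4EHP, binds the cap without eIF4G and is known as a translational repressor, and in human cells it also takes part in translation of selected mRNAs under low oxygen. EIF4ENIF1, or 4E-T, carries eIF4E into the nucleus and holds it on mRNAs that are not being translated.

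All values below are normalized counts, that is, reads counted per gene divided by 1 size factor per library and not divided by gene length, so levels are compared between libraries and not between genes. The libraries held between 15734847 and 22782649 reads. Control replicate 2 lay farthest from the other libraries of its group, at a root-mean-square log2 distance of 1.37 over all tested genes, against 0.80 to 1.07 in the other 5 libraries. Hepatocyte marker genes took 8.53% to 12% of reads after hypoxia and 8.49% to 11.8% in controls. Of the 21 hepatocyte rows tested with limma, 2 rose and 2 fell, while 2.24% of all tested rows were called in either direction. Exocrine pancreas markers, which a fish liver sample can hold because pancreatic tissue runs through it, took 0.198%, 0.695% and 0.17% of reads in hypoxia replicates 1 to 3, and 0.492%, 0.000998% and 0.0551% in control replicates 1 to 3. Endothelium markers took 0.0075%, 0.0212% and 0.00886% in hypoxia replicates 1 to 3, and 0.00575%, 0.00471% and 0.00747% in control replicates 1 to 3. Every hypoxia library was above every control library, but hypoxia replicate 1 (0.0075%) was barely above control replicate 3 (0.00747%). In limma 2 of the 12 endothelium rows rose and 0 fell. Both risen rows were copies of kdr, a receptor for VEGF, with log2 differences of 2.01 ± 0.34 (kdr 113063322, adjusted p = 0.021) and 2.01 ± 0.37 (kdr 113120988, adjusted p = 0.029), and they kept their calls in 1 and 2 of the 6 fits that left out 1 library. These 2 rows had 114 and 149 reads in hypoxia replicate 1, against 37 and 83 reads in control replicate 3. They are part of the summed endothelium share, and the sums without them were not compared. The summed ranges of the 2 groups overlapped for leukocyte, red blood cell, bile duct and skeletal muscle markers. The part of these cell types in the results below was not tested. Of the 17 pancreas rows and the 22 hepatocyte rows, 0 were without a read in all 6 libraries. Fewer cells of a type and less RNA per cell cannot be told apart in such bulk samples.

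Among the kinases, 2 of the 5 rows named mknk2 rose after hypoxia, each by about the same amount. The row mknk2 113069921 stood at 26350, 21701 and 34456 in the hypoxia libraries, against 856, 1336 and 1039 in the control libraries. The lowest hypoxia library was 16.2 times the highest control library. Its mean was 27502 ± 6455 after hypoxia and 1077 ± 242 in controls (SD, n = 3 each), a ratio of 25.5. On the log2 scale, with 1 added to each normalized count, hypoxia minus control was 4.67 ± 0.33 (SE), with a 95% confidence interval of 3.93 to 5.41 from limma. The row mknk2 113107242, named mknk2b in the reference gene table, stood at 19898, 12297 and 22218 after hypoxia, against 610, 890 and 524 in controls. Here too the groups were far apart, with the lowest hypoxia library at 13.8 times the highest control library. The means were 18137 ± 5190 after hypoxia and 675 ± 191 in controls (SD, n = 3 each), a ratio of 26.9 and a log2 difference of 4.74 ± 0.34 (95% confidence interval 3.97 to 5.50). Without control replicate 2 the log2 differences were 4.84 for mknk2 113069921 and 4.96 for mknk2 113107242. In normalized counts hypoxia replicate 2 was the lowest hypoxia library in both rows. As a share of all counted reads, mknk2 113069921 gave 0.132%, 0.163% and 0.186% in hypoxia replicates 1 to 3, so replicate 1 was lowest. On that scale mknk2 113107242 gave 0.0994%, 0.0924% and 0.12%. Among the hypoxia libraries replicate 2 had the largest share of pancreas, endothelium, bile duct and leukocyte markers and the smallest of hepatocyte markers. The part of those cells in the rise was not tested.

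**Figure D1:**
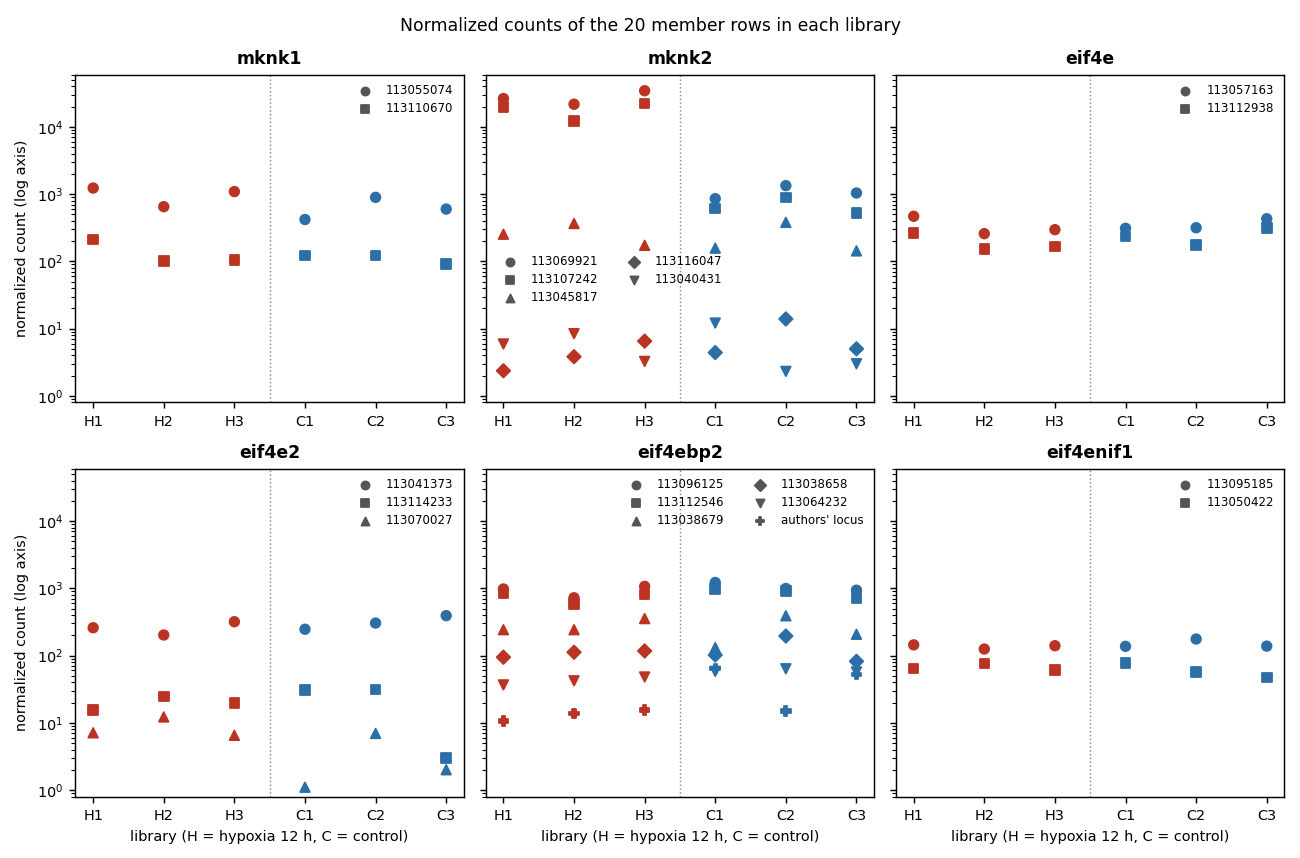
Normalized counts of the 20 member rows, on a log axis, in each of 3 hypoxia libraries (H1 to H3, red) and 3 control libraries (C1 to C3, blue), with 1 panel per gene and 1 marker shape per row. The rows mknk2 113069921 and mknk2 113107242 lie between 12297 and 34456 in the hypoxia libraries and between 524 and 1336 in the control libraries, and in each of the other 5 panels the red and blue points of the main row cover a common range.

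The rise was large enough to show in the make-up of the libraries. Summed over its 5 rows, mknk2 gave 0.232%, 0.258% and 0.307% of all counted reads after hypoxia, against 0.00948%, 0.0129% and 0.0102% in controls. The pair of risen rows stood in a similar proportion to each other in both groups. Counts of mknk2 113069921 were 1.32, 1.76 and 1.55 times those of mknk2 113107242 in the hypoxia libraries, against 1.4, 1.5 and 1.98 times in the control libraries. These 2 ranges overlap. The sources used here do not say how reads shared by near-identical copies were counted, so the split between the rows is less certain than their sum.

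The other rows of mknk2 did not pass the threshold. Mknk2 113045817, which the reference names mknk2a, was at 253, 365 and 173 after hypoxia, against 157, 380 and 143 in controls. Its groups overlapped, and the difference was 0.30 ± 0.42 on the log2 scale (95% confidence interval -0.65 to 1.25). This row made up 0.544%, 1.06% and 0.303% of mknk2 counts in the hypoxia libraries, against 9.58%, 14.5% and 8.35% in the control libraries. The last 2 rows were close to the limit of detection. MKNK2 113116047 had 2, 5 and 8 reads after hypoxia and 4, 12 and 5 reads in controls. MKNK2 113040431, a pseudogene in the reference separated there from MKNK2 113116047 by 2 other genes, had 5, 11 and 4 reads after hypoxia and 11, 2 and 3 reads in controls. No difference was detected in these 2 rows, where few reads leave small differences out of reach. The 95% confidence intervals of their log2 differences were -2.19 to 0.87 and -1.43 to 1.88. Both lay below the intervals of the 2 risen rows, which began at 3.93 and 3.97.

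Neither row of the sister kinase mknk1 passed the threshold. The main row, mknk1 113055074, stood at 1230, 650 and 1090 after hypoxia, against 419, 895 and 599 in controls. Hypoxia replicate 2 lay below control replicate 2, so the groups overlapped. The log2 difference of 0.65 ± 0.35 had a 95% confidence interval of -0.13 to 1.44, and it was 0.93 without control replicate 2. As a share of all counted reads, a scaling added after the data were seen, the same row gave 0.00615%, 0.00488% and 0.00588% after hypoxia and 0.00242%, 0.00441% and 0.00356% in controls. On that scale the groups did not overlap, and the row still did not pass the threshold, with a log2 difference of 0.74. The second row, mknk1 113110670, was at 210, 101 and 104 after hypoxia, against 122, 123 and 91.1 in controls (0.23 ± 0.34, 95% confidence interval -0.54 to 1.0). Its highest value was that of hypoxia replicate 1, and without that library the difference was -0.11.

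Shares of the 2 kinases in their joint counts are compared between libraries only, as counts are not divided by gene length. Of all counts assigned to MNK rows, mknk2 made up 97.0%, 97.9% and 97.9% in the hypoxia libraries and 75.2%, 72.1% and 71.3% in the control libraries. Summed over rows, mknk2 averaged 45913 ± 11252 after hypoxia and 1992 ± 547 in controls (SD, n = 3 each), a ratio of 23.0. The sum of mknk1 averaged 1128 ± 349 after hypoxia and 749 ± 244 in controls, a ratio of 1.51 with overlapping groups.

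**Figure D2:**
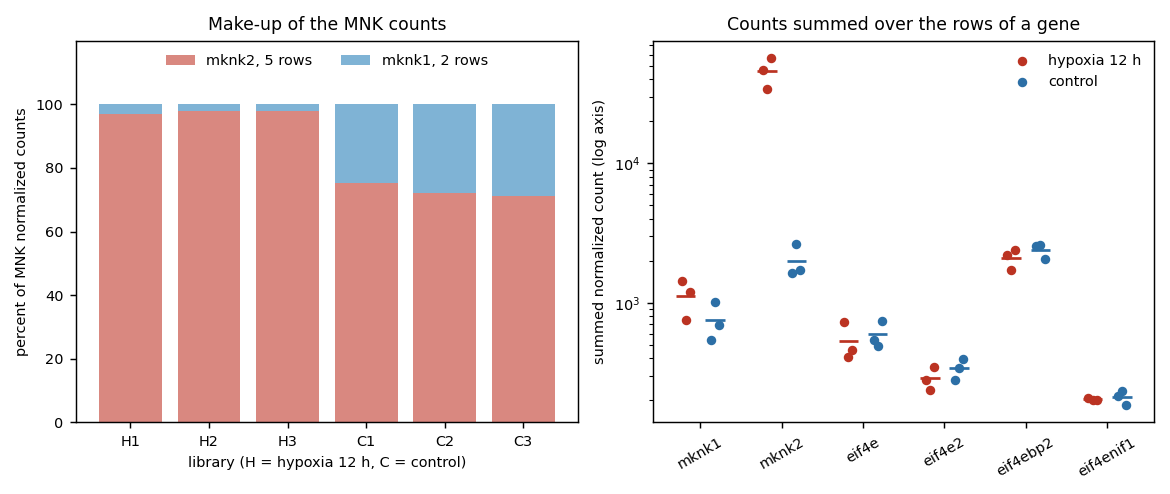
Left, share of MNK normalized counts from the 5 mknk2 rows and the 2 mknk1 rows, in percent, for each hypoxia (H) and control (C) library. These counts are not divided by gene length. Right, normalized counts summed over the rows of each gene on a log axis, with 1 point per library, red for hypoxia and blue for control, and a bar at the mean of 3. The mknk2 share is 97.0% to 97.9% after hypoxia and 71.3% to 75.2% in controls, and the summed groups overlap in the other 5 genes.

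The rows named eif4e carry the name of the cap-binding protein, the substrate of the kinases, and neither of the 2 passed the threshold. Rows named eif4e1a, also for a cap-binding protein, are given under other observations. The row eif4e 113057163, eif4e1c in the reference, was at 468, 258 and 296 after hypoxia, against 310, 316 and 430 in controls. Hypoxia replicate 1 was the highest of the 6 libraries and hypoxia replicate 2 the lowest, so the control values fell inside the hypoxia range. The log2 difference was -0.08 ± 0.29 (95% confidence interval -0.72 to 0.57), and it was 0.10 without hypoxia replicate 2 and 0.08 without control replicate 3. The row eif4e 113112938 was at 263, 152 and 165 after hypoxia, against 233, 176 and 314 in controls, with overlapping groups and a difference of -0.32 ± 0.31 (95% confidence interval -1.03 to 0.39). Within each library the 2 rows stood in a similar proportion, with eif4e 113057163 giving 62.9% to 64.2% of their sum after hypoxia and 57.1% to 64.2% in controls. The sum of both rows averaged 534 ± 172 after hypoxia and 593 ± 134 in controls (SD, n = 3 each).

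None of the 3 rows of eIF4E2, the cap-binding repressor, was called. Eif4e2 113041373, listed as eif4e2rs1 in the reference, held most of the counts, with 259, 202 and 318 after hypoxia and 246, 304 and 392 in controls. The highest control library was above every hypoxia library, but the groups overlapped, and the log2 difference was -0.27 ± 0.28 (95% confidence interval -0.89 to 0.35). EIF4E2 113114233 had 13, 32 and 24 reads after hypoxia and 28, 27 and 3 reads in controls. The direction of this row was not settled, as the difference was 0.35 ± 0.80 in limma, -0.65 without control replicate 3, and -0.15 in edgeR. EIF4E2 113070027 had 6, 16 and 8 reads after hypoxia and 1, 6 and 2 reads in controls, a difference of 1.34 ± 0.70 with a 95% confidence interval of -0.25 to 2.93 that spans both directions.

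Of the 4E-BPs, every row found by the rule carried the name EIF4EBP2 in the deposited table. The reference gives 1 of them, EIF4EBP2 113038679, the symbol eif4ebp1, so a row for the first 4E-BP may be present under the name of the second. The main rows were EIF4EBP2 113096125 and EIF4EBP2 113112546. EIF4EBP2 113096125 was at 976, 723 and 1068 after hypoxia, against 1220, 994 and 937 in controls (-0.20 ± 0.25, 95% confidence interval -0.76 to 0.36). EIF4EBP2 113112546 was at 847, 588 and 806 after hypoxia, against 967, 919 and 722 in controls (-0.22 ± 0.25, 95% confidence interval -0.78 to 0.34). In both rows hypoxia replicate 2 was the lowest library and control replicate 1 the highest, and the groups overlapped. EIF4EBP2 113038679 was at 242, 242 and 354 after hypoxia, against 131, 390 and 207 in controls. Control replicate 2 was the highest library of that row and control replicate 1 the lowest, so the difference of 0.32 ± 0.39 lay within the spread, and it was 0.73 without control replicate 2 and -0.05 without control replicate 1.

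The remaining 3 rows of eif4ebp2 had fewer counts. EIF4EBP2 113038658 was at 94.5, 112 and 117 after hypoxia, against 102, 195 and 82.1 in controls (-0.14 ± 0.35, or 0.23 without control replicate 2). EIF4EBP2 113064232 was at 36.6, 42.1 and 48.0 after hypoxia, against 58.2, 63.6 and 57.1 in controls. Every hypoxia library was below every control library in that row, but the log2 difference of -0.49 ± 0.31 (95% confidence interval -1.20 to 0.21) did not pass the threshold. The remaining EIF4EBP2 row, a locus added by the authors and without an NCBI identifier, was at 10.6, 13.8 and 15.5 after hypoxia, against 63.7, 15.0 and 52.0 in controls. Its low control value was that of replicate 2, which overlapped the hypoxia range. The difference was -1.43 ± 0.58 and did not pass the threshold, whereas without control replicate 2 it was -2.05 and did. Summed over the 6 rows, eif4ebp2 averaged 2112 ± 354 after hypoxia and 2392 ± 291 in controls (SD, n = 3 each), with overlapping groups.

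The eIF4E transporter was measured in 2 rows, neither of them called. Its sum was 208, 202 and 201 after hypoxia, against 214, 232 and 185 in controls, so all hypoxia values lay inside the control range. Eif4enif1 113095185 was at 144, 125 and 140 after hypoxia and 137, 176 and 138 in controls (-0.13 ± 0.24, 95% confidence interval -0.68 to 0.42). EIF4ENIF1 113050422 was at 63.8, 76.5 and 61.0 after hypoxia and 76.9, 56.6 and 47.0 in controls (0.18 ± 0.32, 95% confidence interval -0.54 to 0.89).

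Counted over the family, all 20 rows had a mean of at least 1 and were tested with all other genes, and 2 rose and 0 fell at a Benjamini-Hochberg adjusted p under 0.05 from limma. At an unadjusted p under 0.05, 1 row was lower, and edgeR and DESeq2 each called 2 rows higher and 0 lower. Over all genes, 2.24% of the 41045 tested rows were called, 1.83% as higher and 0.417% as lower after hypoxia. Of those 41045 rows, 7653 had an unadjusted p under 0.05 in limma, and edgeR called 787 and DESeq2 2745. The groups did not overlap in 3 of the 20 rows, beside 24.6% of all tested rows. Of the 18 rows not called, 8 had a difference above 0 and 10 below 0, between -1.43 and 1.34. The median over the 20 rows was 0.05, and over all tested rows it was 0.00. Among all tested rows ordered by log2 difference from the highest, mknk2 113107242 ranked 87 and mknk2 113069921 ranked 91. In the authors' deposited table the log2 fold changes of these 2 rows were 4.75 and 4.67.

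**Figure D3:**
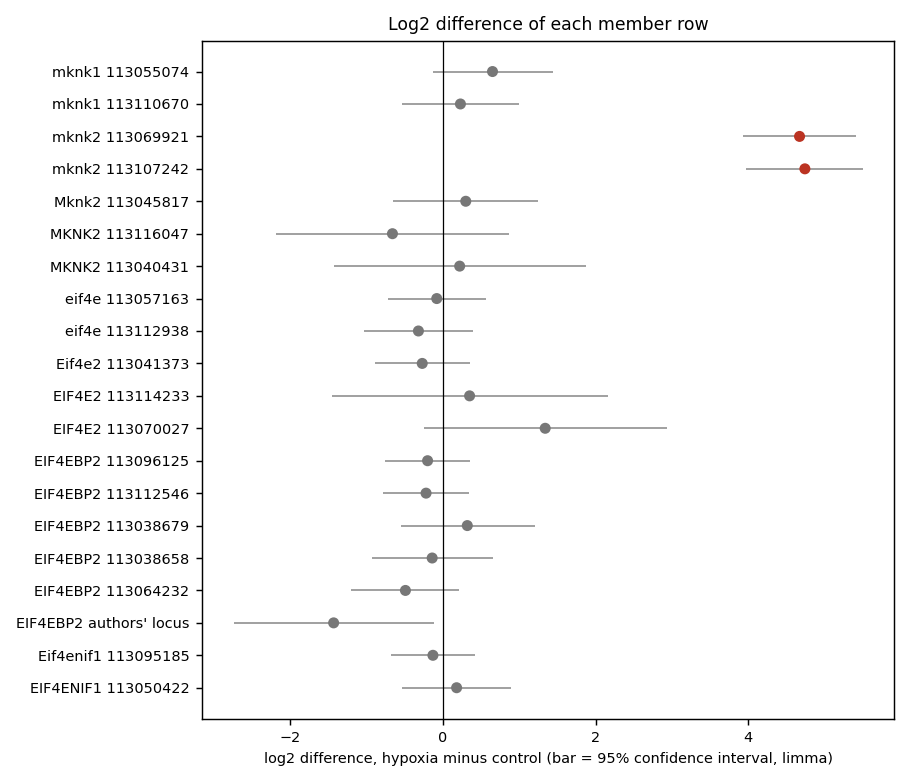
Log2 difference, hypoxia minus control, for each of the 20 member rows, with horizontal bars for the 95% confidence interval from limma, and red points for rows that passed the threshold. The rows mknk2 113107242 and mknk2 113069921 stand at 4.74 and 4.67, and the other 18 lie between -1.43 and 1.34.

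Genes that work with the family were taken from 6 lists of 219 rows, of which 218 were tested with limma, 11 rose and 0 fell (30 higher and 8 lower at an unadjusted p under 0.05, 10 and 0 called by edgeR, 16 and 0 by DESeq2). That is 5.05% of the tested rows in the lists, beside 2.24% of all tested rows, and the median over the lists was 0.04. Of the 11 rises 7 were copies of ddit4 or ddit4l, and the rise of ddit4 was known when the lists were made. The share in the lists was therefore fixed in part by that choice and is no evidence of an excess. Over all 41045 tested rows, 7653 had an unadjusted p under 0.05, and edgeR called 787 and DESeq2 2745. Without hypoxia replicate 1 or hypoxia replicate 3 the count was 5 in each case, and without control replicate 1 or control replicate 3 it was 6 in each case. Upstream, 0 of 47 rows of the MAP kinases and their activators were called by limma, edgeR or DESeq2, while 3 were higher and 1 lower at an unadjusted p under 0.05. The smallest p in that list belonged to BRAF 113060924, a kinase at the head of the ERK cascade (1.30 ± 0.52, limma adjusted p = 0.23), and to mapk14a 113076476, a p38 kinase (0.55 ± 0.23, adjusted p = 0.24). The mTORC1 list, whose product acts on the 4E-BPs, had 7 rises and 0 falls among 52 tested rows. All 7 were copies of ddit4 or ddit4l, which encode inhibitors of mTORC1, and the rise of ddit4 was known before this list was made. The row ddit4 113055822 was at 6886, 6286 and 8323 after hypoxia, against 50.6, 86.7 and 97.1 in controls (6.54 ± 0.29, limma adjusted p = 1.5e-05). The copies ddit4 113075908 and ddit4 113111437 rose by 7.23 ± 0.40 and 7.55 ± 0.53. In controls the first had 4, 10 and 9 reads and the second 4, 6 and 1, so these sizes depend in part on the added 1. The copy ddit4 113091945, a pseudogene in the reference, also rose, with 101, 304 and 174 reads after hypoxia against 1, 0 and 0 reads in controls, so that the size of its change depends on the added 1 and is not given. These 4 copies of ddit4 kept their calls with any 1 library left out. The 3 rows of ddit4l kept theirs in 2, 2 and 1 of those 6 fits, and the list had 4 rises without hypoxia replicate 1, hypoxia replicate 3, control replicate 1 or control replicate 3. Rows of mtor itself, the kinase of the complex, and of its subunit rptor were not among the rises.

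Of the partners of eIF4E in the cap complex, 2 of 54 rows rose and 0 fell in limma, with a list median of 0.02. At an unadjusted p under 0.05, 6 were higher and 2 lower, while edgeR called 1 and DESeq2 4, all higher. The limma count was 1 with pseudocounts of 0.5 or 5, a filter at a mean of 10 or a block for replicate number. It stayed at 2 with no filter, quantile normalization or total read scaling. Pdcd4 113039872, pdcd4b in the reference, encodes an inhibitor of the helicase eIF4A. It stood at 171, 134 and 159 after hypoxia, against 33.0, 30.1 and 38.0 in controls (2.16 ± 0.28, limma adjusted p = 0.0058). The call was lost without hypoxia replicate 1 or hypoxia replicate 3, with adjusted p up to 0.059. Other copies did not share the rise. Pdcd4 113044446, pdcd4a in the reference, was at -0.30 ± 0.26 and Pdcd4 113108561 at -0.73 ± 0.49, neither of them called. EIF4A2 113046016, a copy of the helicase, was at 1343, 519 and 601 after hypoxia, against 182, 296 and 172 in controls. Its difference was 1.83 ± 0.39 (limma adjusted p = 0.048). It kept its call in 1 of the 6 fits that left out 1 library, the one without control replicate 2. Other copies differed in direction and were not called. EIF4A2 113038437 was at 0.93 ± 0.26, and EIF4A2 113049918, with a higher mean count, at -0.49 ± 0.24. For the partners of eIF4E2 and of the eIF4E transporter, 0 of 36 rows were called by limma or edgeR and 1 by DESeq2, with 3 higher and 2 lower at an unadjusted p under 0.05, and the median was -0.14. The 2 rows of smallest p there were copies of gigyf2, which binds eIF4E2, and they lay on opposite sides of 0. The row gigyf2 113113645 was at 1.0 ± 0.30 (adjusted p = 0.13) and GIGYF2 113093089 at -0.83 ± 0.28 (adjusted p = 0.16). A further copy, gigyf2 113045325, which the reference also names gigyf2, was at 0.59 ± 0.22 (limma adjusted p = 0.2). Among 19 rows of other proteins that MNK kinases phosphorylate or that bind eIF4E, SPRY1 113058087, an inhibitor of receptor tyrosine kinase signalling, rose by 2.11 ± 0.37 (adjusted p = 0.024), and only without control replicate 2 was the call kept when 1 library was left out.

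A further 4E-BP lay just outside the rule by its name. The rule takes eif4ebp3 with a copy suffix, and the fish gene eif4ebp3l has another ending, so its 7 rows were counted with 3 rows of eif4e3 in a list of 10 other eIF4E family rows, where 1 rose and 0 fell. The risen row, eif4ebp3l 113057673, was at 113, 261 and 148 after hypoxia, against 18.7, 9.25 and 7.01 in controls. Every hypoxia library was above every control library, and the difference was 3.81 ± 0.47 (limma adjusted p = 0.0043, and at most 0.049 with any 1 library removed). Among the hypoxia libraries, exocrine pancreas, endothelium, bile duct and leukocyte markers were highest in replicate 2, where this row was highest too. Pancreas markers took 0.198%, 0.695% and 0.17% of reads in hypoxia replicates 1 to 3, and 0.492%, 0.000998% and 0.0551% in control replicates 1 to 3. The part of these cell types in this rise was not tested.

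**Figure D4:**
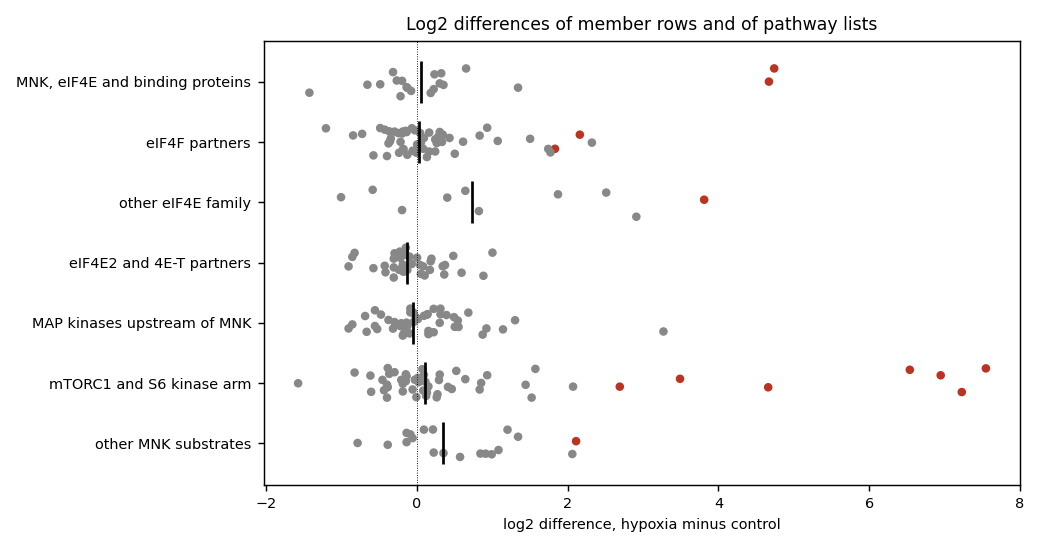
Log2 difference, hypoxia minus control, for the 20 member rows in the top line and for the 218 tested rows of the 6 pathway lists below, with 1 point per row, red for rows that passed the threshold and a black tick at the median. Red points number 2 among the members, 7 in the mTORC1 list, 2 among the partners in the cap complex and 1 each in the other eIF4E family and the other MNK substrates, and the remaining 2 lists have 0.

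Rows whose pattern over the 6 libraries was most like that of mknk2 113107242 were found by the Euclidean distance between log2 profiles centred on their own means. Among named rows outside the family the nearest was cited2 113063110, a competitor of HIF for its coactivator, at a distance of 0.28, with 242, 181 and 268 after hypoxia and 6.59, 10.4 and 5.0 in controls. This row had 6, 9 and 5 reads in the controls, so its distance and its place as nearest depend in part on the added 1. Next came 2 rows of Arrdc3, an arrestin-like adaptor, at 0.39 (Arrdc3 113054597) and 0.60 (Arrdc3 113054622). The transcription factor JUN 113063047 followed at 0.70 and the mitochondrial phosphatase pptc7 113094321 at 0.98. The other risen row of the family, mknk2 113069921, lay at 0.48. The distances of the remaining 18 members were between 4.46 and 7.86. Profiles were not scaled, so a row without a rise of similar size had to lie far away. These distances therefore largely restate the difference by which the family was chosen.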

How the data were processed

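RNA of 3 hypoxia and 3 control liver libraries was sequenced. The submitters' processing notes name the aligners Bowtie2 2.2.8 and TopHat2 2.1.1. The counter, genome build and annotation are not named in the labels or file headers. The deposited signal is named FPKM, but in each library 100% of values were whole multiples of 1 step (tolerance 0.01 of a read), so the authors had divided counts by a size factor per library (0.8465 to 1.3079). A log2 fold change with its raw p-value and adjusted value was also deposited for each gene, from a test the labels do not name. Of the 20 members 19 have an NCBI identifier, and all 19 matched the goldfish assembly ASM336829v1, used for names and neighbours, where 5 have a symbol of their own.

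Groups were compared with limma 3.58.1 (R 4.3.3) and a mean-variance trend on log2 of the normalized count plus 1, for 41045 rows with a mean of at least 1, without a block, and p was adjusted over all of them by the Benjamini-Hochberg method. The method was tested on simulated data. Over all tested rows the smallest absolute log2 difference called was 1.07, so a row that was not called may still have changed. On recovered reads edgeR 4.0.16 called 787 rows and DESeq2 1.42.0 called 2745. Member values are given in every library where the mean is at least 10 (as reads for EIF4E2 113114233), and reads for the 3 rows below that. From each pathway list up to 4 called rows of smallest p are named, or the 2 of smallest p where none was called. The members and lists were chosen with earlier results of these data known. Errors cover the spread between libraries. Sequences of the members were not used here.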

Additional observations from a re-analysis of the deposited data

How the results depend on the processing

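The count of 2 called members held under edgeR, DESeq2, pseudocounts of 0.5 and 5, no filter, a filter at a mean of 10, quantile normalization, total read scaling (added after the data were seen) and the replicate block, and it was 2 to 3 with 1 library left out. The third was the EIF4EBP2 locus without an NCBI identifier, when control replicate 2 was left out. Log2 differences of mknk2 113069921 spanned 4.50 to 4.84 and those of mknk2 113107242 spanned 4.57 to 5.0 when 1 library was left out. Of 375 recomputed differences of member rows and gene sums, 0 moved by more than the spread between replicates. For fits that left out 1 of 3 libraries this was fixed in advance, as such a step cannot move a difference by more than that spread. The spread used for this count is not the SE given after ±, and some of those fits moved a difference by more than its SE. The difference of EIF4E2 113114233 went from 0.35 ± 0.80 to -0.65 without control replicate 3. Of the called rows, 0 changed sign. Among rows not called, the sign of eif4e 113057163 also turned under total read scaling (0.01), that of EIF4E2 113114233 under edgeR and DESeq2 (-0.15 and -0.12), and that of MKNK2 113040431 in fits without hypoxia replicate 2 or control replicates 2 or 3 (-0.04, -0.15 and -0.02).

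Over all rows, 921 were called (81.4% higher). DESeq2 called 2745 (61.1% higher) and the replicate block 415. Without hypoxia replicates 1, 2 and 3 the count was 267, 334 and 338, and without control replicates 1, 2 and 3 it was 364, 2185 and 257. The 11 called pathway rows were 7 under the replicate block and 5 to 11 with 1 library left out. Replicate numbers are not known to pair the libraries. Deviations from the group means of same-numbered libraries correlated at -0.11, -0.26 and -0.05, and in 0 of 3 cases was a hypoxia library closest to the control of its own number. Scaling shifted the median of all rows by at most 0.08 in either direction. Values of rows with under 20 reads per library rest on few counts.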

Other observations

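The deposited table also names 4 rows eif4e1a, the zebrafish name of another gene for the cap-binding protein, which neither the rule nor a list took in and which were chosen after their values were seen. The row eif4e1a 113091092 was at 408, 294 and 422 after hypoxia, against 435, 611 and 394 in controls (log2 difference -0.35 ± 0.26). The row eif4e1a 113057071, eif4eb in the reference, was at 227, 170 and 199 after hypoxia, against 236, 230 and 278 in controls (-0.33 ± 0.23). Its groups did not overlap, as in 24.6% of all tested rows. Differences of eif4e1a 113112838 and eif4e1a 113114041 were -0.29 ± 0.27 and 0.06 ± 0.34. None of the 4 passed the threshold, as with the 2 rows named eif4e.

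Some rows of eif4ebp3l other than 113057673 varied strongly between control libraries. The row eif4ebp3l 113064337 was at 411, 911 and 395 after hypoxia, against 477, 16.2 and 96.1 in controls. The row eif4ebp3l 113079989 was at 72.1, 145 and 87.1 after hypoxia, against 191, 2.31 and 29.0 in controls. The row eif4ebp3l 113038536 was at 115, 261 and 151 after hypoxia, against 391, 25.4 and 79.1 in controls. In all 3 rows control replicate 1 was the highest control and control replicate 2 the lowest, and hypoxia replicate 2 was the highest hypoxia library. Exocrine pancreas and leukocyte markers had that order too. Pancreas markers took 0.198%, 0.695% and 0.17% of reads in hypoxia replicates 1 to 3, and 0.492%, 0.000998% and 0.0551% in control replicates 1 to 3. Leukocyte markers took 0.149%, 0.273% and 0.135% in hypoxia replicates 1 to 3, and 0.342%, 0.139% and 0.227% in control replicates 1 to 3. The part of either cell type in these rows was not tested. The remaining rows, eif4ebp3l 113051591 (a long non-coding RNA in the reference), eif4ebp3l 113076888 and eif4ebp3l 113113720, had log2 differences of 2.91 ± 0.90, 0.64 ± 0.61 and 0.40 ± 0.46 and did not pass the threshold. Controls of eif4ebp3l 113076888 were at 44.0, 59.0 and 13.0, and those of eif4ebp3l 113113720 at 72.5, 79.8 and 36.0. In these last 2 rows control replicate 2 was the highest control, unlike in the pancreas and leukocyte markers.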
